A study of Mus musculus with 9 samples.

Results

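The 200 rows described here are the most abundant of those that a gene-level count table of rat liver types as noncoding RNA (ncRNA). They were chosen by their values: each count was divided by its library's total and scaled to CPM (counts for each 1e+06 counts of the library), the CPM were averaged over the 9 libraries, and the 200 ncRNA-typed rows with the highest mean were kept. They are 200 of 12779 ncRNA-typed rows and of 37203 rows in all. Their levels are therefore a description and not a finding, and levels are not divided by transcript length, which the table does not give. The last 3 rows kept had means of 10.19, 10.17 and 10.12 CPM, and the first 3 left out had 9.822, 9.753 and 9.718 CPM.

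The libraries were made from total liver RNA of Wistar rats, all labelled male, in 3 groups of 3. The schisandrin B group and the fibrosis group both received carbon tetrachloride (CCl4), which is metabolised in hepatocytes to a radical that injures them. It was given over 8 weeks, 3 times weekly, at 2 mL/kg diluted to 50% with olive oil. The schisandrin B group also received schisandrin B, a lignan of Schisandra fruit, daily from week 4 for 4 weeks, at a study dose of 25 or 50 mg/kg that the labels do not assign to these libraries, and the normal group received olive oil alone. The labels give no genotype, age or pooling, and leave unsaid if each library is its own animal: SDs and p-values here reflect the spread between libraries, which may be technical.

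A pseudogene is a copy of a gene that has lost the ability to encode the full protein. Many arise when a messenger RNA is copied back into the genome, so genes with abundant messages, such as those of ribosomal proteins, glycolytic enzymes and chaperones, have many such copies. The copies can be nearly identical in sequence to the parent message, and a short read from one can then be assigned to the other. Long noncoding RNAs, by contrast, are transcripts with genes of their own and no coding parent.

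Library totals ran from 10320299 to 16255167 counts, and 14581 rows, all 200 among them, held enough counts to be tested. The lowest of the 200 held 1133 counts over the 9 libraries, and 192 had at least 10 counts in every library. The marker sums in this paragraph are in CPM scaled by TMM, a scaling explained below, and not by library totals. Summed levels of 8 hepatocyte markers were 191100 to 209800 CPM in schisandrin B libraries, 63830 to 108800 CPM in fibrosis and 227200 to 261100 CPM in normal ones. Summed levels of 5 cholangiocyte markers were 12.47 to 27.33 CPM in schisandrin B libraries, 50.78 to 63.14 CPM in fibrosis and 19.41 to 24.92 CPM in normal ones, and those of 5 neutrophil markers 1.434 to 4.52, 10.28 to 12.51 and 4.809 to 6.882 CPM. All 6 T and NK cell markers tested fell in fibrosis over normal. Summed levels of 7 markers of activated stellate cells and fibroblasts were 412.2 to 572.8 CPM in schisandrin B libraries. They were 211.0 to 437.9 CPM in fibrosis and 198.2 to 310.6 CPM in normal ones. Singly these 7 did not all move alike: 4 rose and 0 fell in fibrosis over normal. In schisandrin B over fibrosis 3 were higher and 2 lower. The part of these markers in the changes below was not tested. In bulk RNA, fewer cells of a type and less RNA per cell cannot be told apart. The labels give all animals as male, but the 3 of 4 Y-linked genes that have a row summed to 23.28 to 27.12 CPM in schisandrin B libraries, 17.57 to 23.49 CPM in fibrosis and 0.8127 to 2.591 CPM in normal ones. Every comparison with normal libraries below holds this Y-linked difference as well, and its part in them was not tested. Fibrosis replicate 1 stood apart: 91 of the 200 rows had their highest level of the 9 libraries there.

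The symbols of the 200 rows did not read as those of the known long noncoding RNAs. Of the 200, 27 carried pseudogene symbols (ending in "-ps" and a number), 5 carried other symbols, and 168 carried only a LOC or RGD number that the table does not pair with a name. The 5 other symbols were Cox6b1 and Ndufa13, which are names of protein-coding genes, and Ftl1l1, Rpl5l1 and Rpl27-l1, which are names of gene copies. Of 54 well-known noncoding RNA symbols looked for, 11 had a row and 0 were among the 200. Of the 11, only Gas5, H19, Snhg4 and Miat are typed ncRNA, so the others could not be among the 200 at any level. Among those others, Rn45s and Rn18s, typed as ribosomal RNA, had 375.2 and 239.1 CPM. The highest of the 11 typed as ncRNA was the small nucleolar RNA host gene Gas5, at rank 235 with 8.432 CPM. Malat1, Neat1 and Xist had no row in the table used here.

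**Figure D1:**
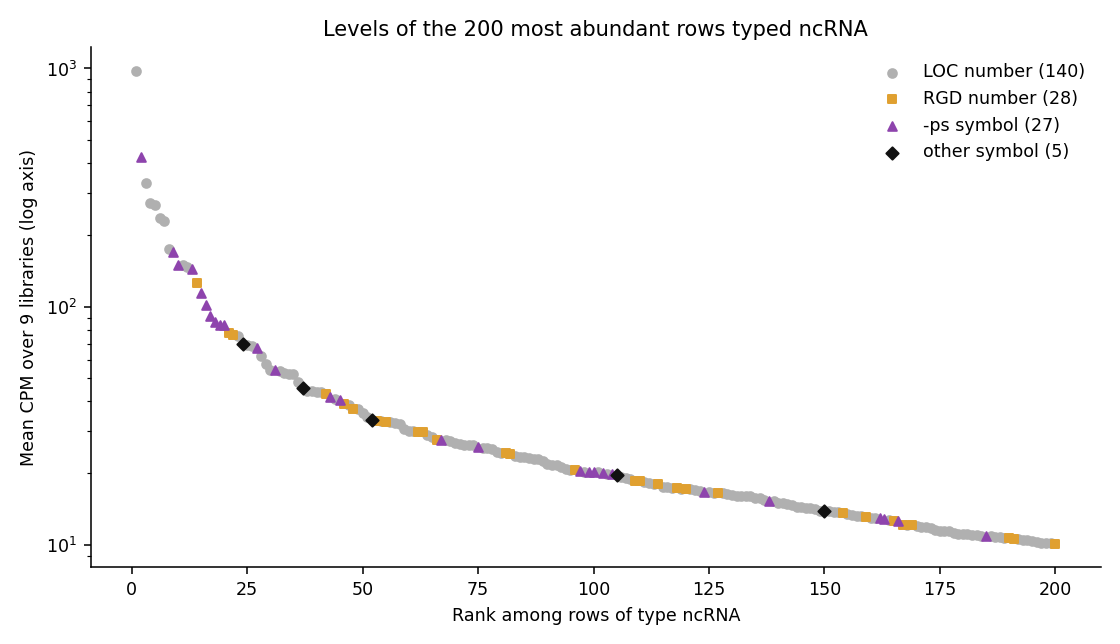
Mean level over the 9 libraries (CPM from library totals, log axis) against rank for the 200 rows, with marker shape and colour by form of symbol. Only 16 rows reach 100 CPM, 98 lie under 20 CPM, and pseudogene symbols occur from rank 2 to rank 185.

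The levels fell steeply along the ranks. The first row, LOC103693047, averaged 975.9 CPM, the second, Rps2-ps6, 423.0 CPM, and the median row 20.19 CPM. Together the 200 rows held 0.6903% to 0.8093% of the counts in the schisandrin B group, 0.9858% to 1.313% in the fibrosis group and 0.643% to 0.771% in the normal group. The fibrosis libraries were above all others on this scale of library totals. Scaled by TMM (trimmed mean of M values, a factor that aligns the bulk of the rows between libraries), the summed level was 6809 to 8467 CPM in schisandrin B, 8456 to 12370 CPM in fibrosis and 7128 to 8849 CPM in normal libraries, and the groups overlapped. All levels from here on are TMM-scaled CPM, and all changes are log2 fold changes with their standard error.

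Many of these rows differed between fibrotic and normal livers, and more of them rose than fell. Of the 200, 124 differed between fibrosis and normal libraries in edgeR's quasi-likelihood test with Benjamini-Hochberg adjustment over all 14581 rows (adjusted p under 0.05, called here "passing"). Over all rows tested 48.3% passed, and 59.4% of the 7487 mRNA-typed rows at or above the level of the last of the 200 did, so the members' 62.0% was close to that of coding rows of like level. The direction was less even: 82 members (41.0%) rose and 42 (21.0%) fell, against 25.4% and 22.9% of all rows and 30.9% and 28.5% of those mRNA rows. No test of this difference was made. The choice by the mean over all libraries bears on these counts, and is read here on library totals, the scale of the choice. Of the 200 rows, 60 reached the limit only through the group where they were highest. That group was schisandrin B for 12, fibrosis for 40 and normal for 8, and the mean over the other 6 libraries lay under the limit. A high level in a single group favoured the choice of such rows, though not all of them passed, so the counts are a description. With library totals in place of TMM factors the split was 118 up and 30 down, and without fibrosis replicate 1 it was 78 and 41.

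Schisandrin B libraries differed from fibrosis libraries in 116 of the 200 rows (58.0%), with 37 (18.5%) higher and 79 (39.5%) lower. The corresponding shares of all rows were 47.3%, 22.5% and 24.8%, and those of the mRNA rows of like level 57.8%, 26.9% and 30.9%. This comparison uses the same fibrosis libraries as the one with normal. Schisandrin B libraries differed from normal libraries in 35 rows (17.5%), with 16 higher and 19 lower, against 10.5% of all rows, 5.25% higher and 5.25% lower, and 12.6% (5.53% higher and 7.03% lower) of the mRNA rows of like level. Library totals turned that split into 29 higher and 14 lower. Leaving out 1 library at a time gave 18 to 28 in place of the 35, with 22 without schisandrin B replicate 1, 18 without schisandrin B replicate 3, 23 without normal replicate 1 and 19 without normal replicate 3.

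The median member changed by 0.44 in fibrosis over normal, against 0.03 over all rows. It changed by -0.26 in schisandrin B over fibrosis, against -0.03 over all rows, and by -0.00 in schisandrin B over normal, against 0.00. Library totals shifted the median of all rows by 0.43, -0.27 and 0.16 in these 3 comparisons, and upper-quartile factors by -0.11, 0.13 and 0.02. The groups did not overlap for 142 members (71.0%) in fibrosis against normal, 125 (62.5%) in schisandrin B against fibrosis and 78 in schisandrin B against normal. Over all rows the groups did not overlap for 55.8%, 56.8% and 38.7%, and over the mRNA rows of like level for 65.0%, 65.8% and 45.3%.

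**Figure D2:**
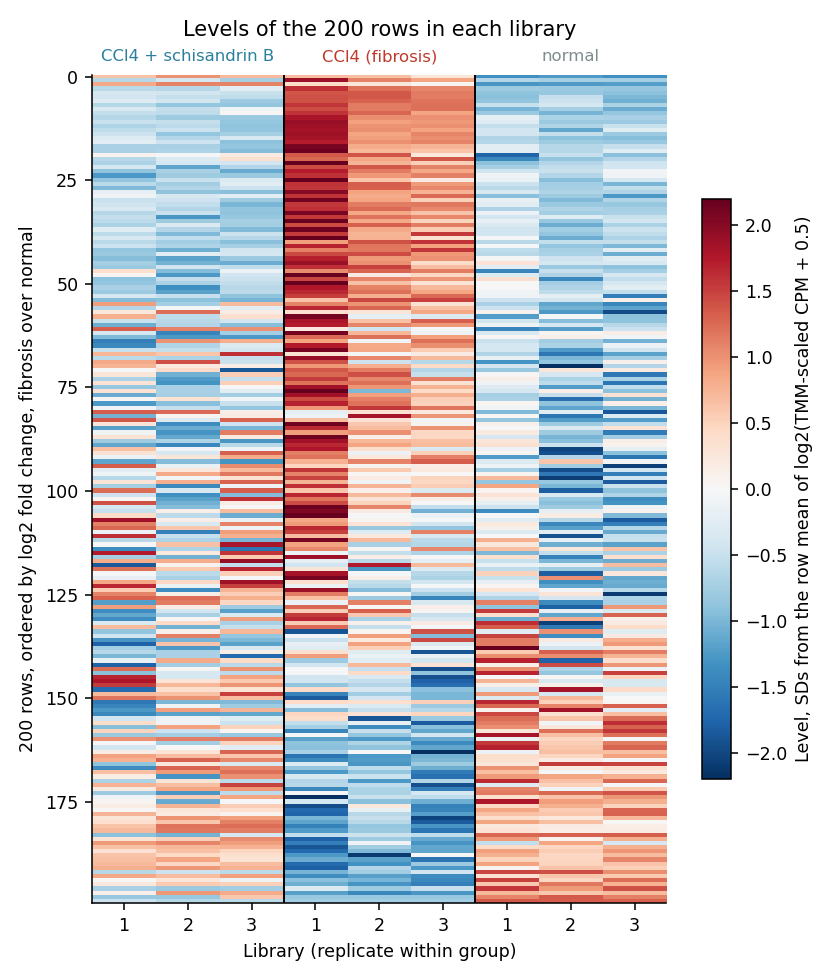
Level of each of the 200 rows (down the page, ordered by log2 fold change of fibrosis over normal) in each of the 9 libraries (across), as SDs from the row's mean of log2(TMM-scaled CPM + 0.5). The upper rows are high in fibrosis libraries, most of all in replicate 1, where 91 rows had their highest level, and the lowest rows are low there.

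The 5 chaperone pseudogene rows moved together and by large factors: 5 of 5 rose in fibrosis over normal, 5 of 5 were lower in schisandrin B than in fibrosis, and 0 of 5 passed between schisandrin B and normal. These counts were the same with library totals and with upper-quartile factors, and both counts with fibrosis were the same without fibrosis replicate 1. Hsc70-ps1 and Hsc70-ps2 share a parent gene, so they are not independent. As a background to this and the following named groups, 25.4% of all rows rose and 22.9% fell in fibrosis over normal. In schisandrin B over fibrosis 22.5% of all rows were higher and 24.8% lower, and in schisandrin B over normal 5.25% were higher and 5.25% lower. Hsc70-ps1, named after the former symbol of Hspa8, the constitutive cytosolic heat shock protein, had 66.2, 46.4 and 62.7 CPM in schisandrin B libraries, 601, 232 and 261 CPM in fibrosis libraries and 45.5, 35.4 and 34.3 CPM in normal libraries. All fibrosis libraries were above all others. The change was 3.25 ± 0.36 in fibrosis over normal (edgeR, adjusted p = 3.64e-05) and -2.64 ± 0.35 in schisandrin B over fibrosis (adjusted p = 0.000135).

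Hspd1-ps1, a copy of the gene of the mitochondrial chaperonin, had 19.8, 20.3 and 15.2 CPM in schisandrin B libraries, 410, 88.9 and 82.1 CPM in fibrosis libraries and 32.4, 21.5 and 32.1 CPM in normal libraries. The groups did not overlap between fibrosis and either other group, and fibrosis replicate 1 lay far above its group. The change was 2.76 ± 0.59 in fibrosis over normal (edgeR, adjusted p = 0.00375) and -3.39 ± 0.60 in schisandrin B over fibrosis (adjusted p = 0.00147). Without fibrosis replicate 1 it was 1.58 and -2.22, and both still passed. Hsc70-ps2 changed by 3.17 in fibrosis over normal and -2.78 in schisandrin B over fibrosis. Cct6a-ps7 and Cct7-ps1, copies of genes for subunits of the chaperonin that folds actin and tubulin, rose by 1.74 and 1.49 in fibrosis over normal and changed by -1.64 and -1.52 in schisandrin B over fibrosis.

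The 3 rows named after genes of translation and the nucleolus followed the same course. All 3 rose in fibrosis over normal and all 3 were lower in schisandrin B than in fibrosis, also under both other scalings. Ncl-ps1, a copy of the gene of nucleolin, which acts in ribosome assembly, had 50.8, 42.9 and 45.7 CPM in schisandrin B libraries, 137, 86.7 and 112 CPM in fibrosis libraries and 30.4, 33.2 and 24.7 CPM in normal libraries. Its groups did not overlap in any comparison. It changed by 1.93 ± 0.20 in fibrosis over normal (edgeR, adjusted p = 2.33e-05) and by -1.27 ± 0.20 in schisandrin B over fibrosis (adjusted p = 0.000367). Eif4g2-ps1, named after a translation initiation factor, changed by 0.90 and -1.19, and Eif5b-ps1, named after the factor that joins the ribosomal subunits, by 1.11 and -1.15.

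The 10 rows named after ribosomal protein genes moved less. In fibrosis over normal 3 rose and 7 did not pass, with a median change of 0.47. The 3 of 10 were near the 25.4% of all rows that rose. With library totals 9 of the 10 passed upward, and with upper-quartile factors 2 did. In schisandrin B over fibrosis 1 was higher and 3 were lower, and in schisandrin B over normal 1 was higher and 0 were lower. With library totals these were 0 higher and 3 lower, and 4 higher and 0 lower, and with upper-quartile factors 2 higher and 2 lower, and 1 higher and 0 lower.

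Rps2-ps6, the second most abundant of the 200 rows, had 324, 266 and 384 CPM in schisandrin B libraries, 630, 494 and 466 CPM in fibrosis libraries and 511, 299 and 346 CPM in normal libraries. Fibrosis lay above schisandrin B in every library and overlapped with normal. The difference was -0.71 ± 0.25 in schisandrin B over fibrosis (edgeR, adjusted p = 0.0330), and 0.46 ± 0.24 in fibrosis over normal, which did not pass (adjusted p = 0.142). The call against fibrosis was lost without fibrosis replicate 1 (-0.57), schisandrin B replicate 1 (-0.65) or schisandrin B replicate 2 (-0.58), and with upper-quartile factors (-0.57), and the difference from normal passed with library totals (0.88) and without normal replicate 1 (0.71).

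Rpl5l1 rose by 0.92 ± 0.18 in fibrosis over normal (edgeR, adjusted p = 0.00142) and Rpl34-ps1 by 0.73 ± 0.18 (adjusted p = 0.00595). Both were lower in schisandrin B than in fibrosis, with changes of -0.81 and -0.67, the second of these not without schisandrin B replicate 1 (-0.55). The third, Rpl26-ps2, rose by 0.51 in fibrosis over normal, a call lost without normal replicate 1 (0.49) or 3 (0.45), with upper-quartile factors (0.40) and in a fit of only the 2 groups compared (0.51). Rpl37a-ps3 went the other way under schisandrin B. It had 24.9, 24.9 and 35.6 CPM in schisandrin B libraries, 17.97, 15.74 and 17.91 CPM in fibrosis libraries and 16.3, 13.8 and 13.4 CPM in normal libraries. All schisandrin B libraries were above all others, by 0.73 ± 0.19 over fibrosis (edgeR, adjusted p = 0.00808, not passing with library totals, 0.45) and by 0.97 ± 0.19 over normal (adjusted p = 0.0087).

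Of the 5 rows named after mitochondrial genes, those of the respiratory chain and the row of Bnip3 parted in fibrosis over normal: 3 fell, 1 rose and 1, Atp5h-ps1, did not pass. With library totals 1 fell and 1 rose. Cox6b1, which shares its symbol with a subunit of cytochrome c oxidase, had 61.0, 68.8 and 64.2 CPM in schisandrin B libraries, 52.3, 52.9 and 49.0 CPM in fibrosis libraries and 114, 82.4 and 101 CPM in normal libraries. The 3 groups did not overlap, with fibrosis lowest and normal highest. The change was -0.94 ± 0.16 in fibrosis over normal (edgeR, adjusted p = 0.000632), 0.33 ± 0.16 in schisandrin B over fibrosis, which did not pass (but did with upper-quartile factors, 0.46), and -0.61 ± 0.16 in schisandrin B over normal (adjusted p = 0.0337).

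Ndufa13, the symbol of a subunit of respiratory complex I, changed by -0.50 in fibrosis over normal and by -0.58 in schisandrin B over normal. The call in fibrosis was lost without fibrosis replicate 3 (-0.44) or normal replicate 3 (-0.49), with library totals (-0.07) and with no filter on low counts (-0.47). In schisandrin B over normal, the Ndufa13 call was lost whichever of the 6 libraries compared was left out (-0.69 to -0.48), and the Cox6b1 call whichever was left out other than normal replicate 2 (-0.66 to -0.51). Both were also lost with library totals (-0.43 for Ndufa13 and -0.45 for Cox6b1) and with no filter (-0.59 and -0.62). Uqcrb-ps1, a copy of a gene of complex III, fell by 0.73 in fibrosis over normal, a call lost without normal replicate 3 (-0.65) and with library totals (-0.29).

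Bnip3-ps1 is named after a mitochondrial outer membrane protein that is induced by low oxygen and acts in mitophagy. It had 26.28, 23.04 and 34.05 CPM in schisandrin B libraries, 81.2, 82.9 and 106 CPM in fibrosis libraries and 31.0, 28.2 and 37.2 CPM in normal libraries. Fibrosis lay above both other groups, which overlapped with each other. The change was 1.49 ± 0.20 in fibrosis over normal (edgeR, adjusted p = 0.000118) and -1.70 ± 0.20 in schisandrin B over fibrosis (adjusted p = 6.15e-05).

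The 4 rows named after genes of metabolism and transport took courses of their own: 2 rose and 2 fell in fibrosis over normal, 1 was higher and 2 were lower in schisandrin B over fibrosis, and 0 were higher and 2 were lower in schisandrin B over normal. Eno1-ps1, a copy of the gene of the glycolytic enzyme enolase, had 72.3, 61.1 and 60.8 CPM in schisandrin B libraries, 252, 246 and 208 CPM in fibrosis libraries and 126, 136 and 121 CPM in normal libraries. The 3 groups did not overlap, and schisandrin B was the lowest. All 3 changes passed: 0.88 ± 0.17 in fibrosis over normal (edgeR, adjusted p = 0.00109), -1.86 ± 0.17 in schisandrin B over fibrosis (adjusted p = 1.37e-05) and -0.98 ± 0.17 in schisandrin B over normal (adjusted p = 0.00398).

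Cyp51a1-ps1, named after the sterol demethylase of cholesterol synthesis, was low in both groups that received CCl4. Like Slc22a7-ps1 it is among the 200 only through the normal libraries, so its differences from normal are a description. It had 5.35, 4.74 and 7.94 CPM in schisandrin B libraries, 7.04, 7.42 and 6.99 CPM in fibrosis libraries and 27.6, 28.5 and 29.0 CPM in normal libraries. The first 2 groups overlapped, and both lay under every normal library. The change was -1.99 ± 0.21 in fibrosis over normal (edgeR, adjusted p = 2.34e-05) and -2.24 ± 0.21 in schisandrin B over normal (adjusted p = 8.16e-05).

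Slc22a7-ps1, a copy of the gene of an organic anion transporter of the hepatocyte, had the largest changes of the 32 rows with a proper symbol in both comparisons with fibrosis. It reached the limit only through the normal libraries, so its change from normal and this ranking are a description. It had 9.46, 14.8 and 13.7 CPM in schisandrin B libraries, 1.46, 0.984 and 0.646 CPM in fibrosis libraries and 15.2, 31.09 and 19.03 CPM in normal libraries. All fibrosis libraries lay far under all others. The change was -4.43 ± 0.38 in fibrosis over normal (edgeR, adjusted p = 7.75e-06) and 3.64 ± 0.38 in schisandrin B over fibrosis (adjusted p = 2.72e-05). The hepatocyte markers were also lowest in fibrosis libraries, as given above, and their part in this change was not tested.

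Ftl1l1, named after the iron-storing ferritin light chain, had 28.6, 14.4 and 22.3 CPM in schisandrin B libraries, 91.5, 30.9 and 35.3 CPM in fibrosis libraries and 23.8, 19.7 and 22.8 CPM in normal libraries. Its rise of 1.25 ± 0.40 in fibrosis over normal rested on fibrosis replicate 1, without which it was 0.59 and did not pass. It was also lost without normal replicate 1 (1.295), 2 (1.16) or 3 (1.27) and with no filter (1.27). In schisandrin B over fibrosis the change was -1.27 ± 0.40. This was -0.62 without fibrosis replicate 1, still passing, and was lost without schisandrin B replicate 2 (-1.04) or 3 (-1.29).

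Of the 3 rows named after signalling genes 1 fell in fibrosis over normal and 2 did not pass, while 2 fell with upper-quartile factors and all 3 fell without fibrosis replicate 1. In schisandrin B over fibrosis 2 were higher and 1 was lower. Grlf1-ps1, named after the former symbol of Arhgap35, had 17.2, 15.97 and 15.52 CPM in schisandrin B libraries, 6.96, 7.87 and 8.57 CPM in fibrosis libraries and 14.4, 14.9 and 17.3 CPM in normal libraries. Fibrosis lay under both other groups. The change was -0.99 ± 0.18 in fibrosis over normal (edgeR, adjusted p = 0.000864) and 1.05 ± 0.18 in schisandrin B over fibrosis (adjusted p = 0.000633). Hint1-ps1, a copy of the gene of a nucleotide-binding hydrolase, was higher by 0.92 ± 0.18 in schisandrin B over fibrosis (edgeR, adjusted p = 0.00136).

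Calm-ps2, named after calmodulin, the calcium sensor, had 29.0, 31.5 and 23.4 CPM in schisandrin B libraries, 51.3, 37.5 and 37.3 CPM in fibrosis libraries and 53.08, 53.03 and 48.9 CPM in normal libraries. The schisandrin B libraries were below all others. The difference was -0.59 ± 0.18 over fibrosis (edgeR, adjusted p = 0.0202), lost without schisandrin B replicate 1 (-0.56) or 3 (-0.47), and -0.89 ± 0.18 over normal (adjusted p = 0.0112), lost without schisandrin B replicate 3 (-0.77). Of the 2 rows of the rat class I histocompatibility region, RT1-P2-ps1 passed in no comparison. RT1-CE9-ps1 averaged 61.8 ± 12.7 CPM in schisandrin B, 94.6 ± 18.6 CPM in fibrosis and 118 ± 25.6 CPM in normal libraries (SD, n = 3 each), and passed downward in schisandrin B over fibrosis (-0.61) and over normal (-0.94). The first call was lost without fibrosis replicate 2 (-0.48) or 3 (-0.60) or any schisandrin B library (-0.72 to -0.40), and also with DESeq2 size factors (-0.59), upper-quartile factors (-0.49), a minimum mean of 5 CPM (-0.56) or only the 2 groups compared (-0.61). The second call was lost without any schisandrin B library (-1.05 to -0.77) or normal replicate 2 (-0.78) or 3 (-0.92), and with library totals (-0.79).

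Where a named row passed, the coding gene it is named after mostly passed in the same direction. For 26 of the rows a single mRNA-typed parent row was found, 24 distinct parents in all. Over all rows tested, 48.3% passed in fibrosis over normal, 47.3% in schisandrin B over fibrosis and 10.5% in schisandrin B over normal. How often unrelated rows passed together was not tested. In fibrosis over normal, row and parent both passed in the same direction in 16 pairs and in opposite directions in 0. In 2 pairs (Rpl26-ps2 and Ftl1l1) only the row passed, in 0 only the parent, and in 8 neither. In schisandrin B over fibrosis the counts were 14 pairs in the same direction, 0 opposite, 3 with only the row (Rps2-ps6, Rpl34-ps1 and Ftl1l1), 1 with only the parent (Uqcrb) and 8 with neither. In schisandrin B over normal 2 pairs passed in the same direction (Eno1 and Cyp51), 0 opposite, 2 with only the parent (Rpl26 and Ncl) and 22 with neither.

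In the comparisons with fibrosis the sizes of the changes were often close. Row and parent differed by a median of 0.07 on the log2 scale in fibrosis over normal, with 23 of 26 pairs within 0.5 and 25 of the same sign. The median difference was 0.32 in schisandrin B over fibrosis, with 19 pairs within 0.5 and 21 of the same sign. It was 0.30 in schisandrin B over normal, with 23 pairs within 0.5 but only 15 of the same sign. Over all rows the quartiles of change there were -0.36 and 0.38, though Cyp51a1-ps1 and Cyp51 changed by -2.24 and -2.45. Reads from a copy and its parent can be assigned to either, and how the counting treated such reads is not given in the sources used here, so the values of these rows are uncertain, and a shared change of pair members was not separated from shared reads. Outside the 200 rows, 42 further pseudogene-symbol rows could be tested with a parent. In fibrosis over normal, row and parent passed in the same direction in 20 of them, in opposite directions in 0, only the row passed in 3, only the parent in 8 and neither in 11. The same counts were 18, 0, 4, 8 and 12 in schisandrin B over fibrosis. Over all rows tested 48.3% and 47.3% passed in these comparisons.

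**Figure D3:**
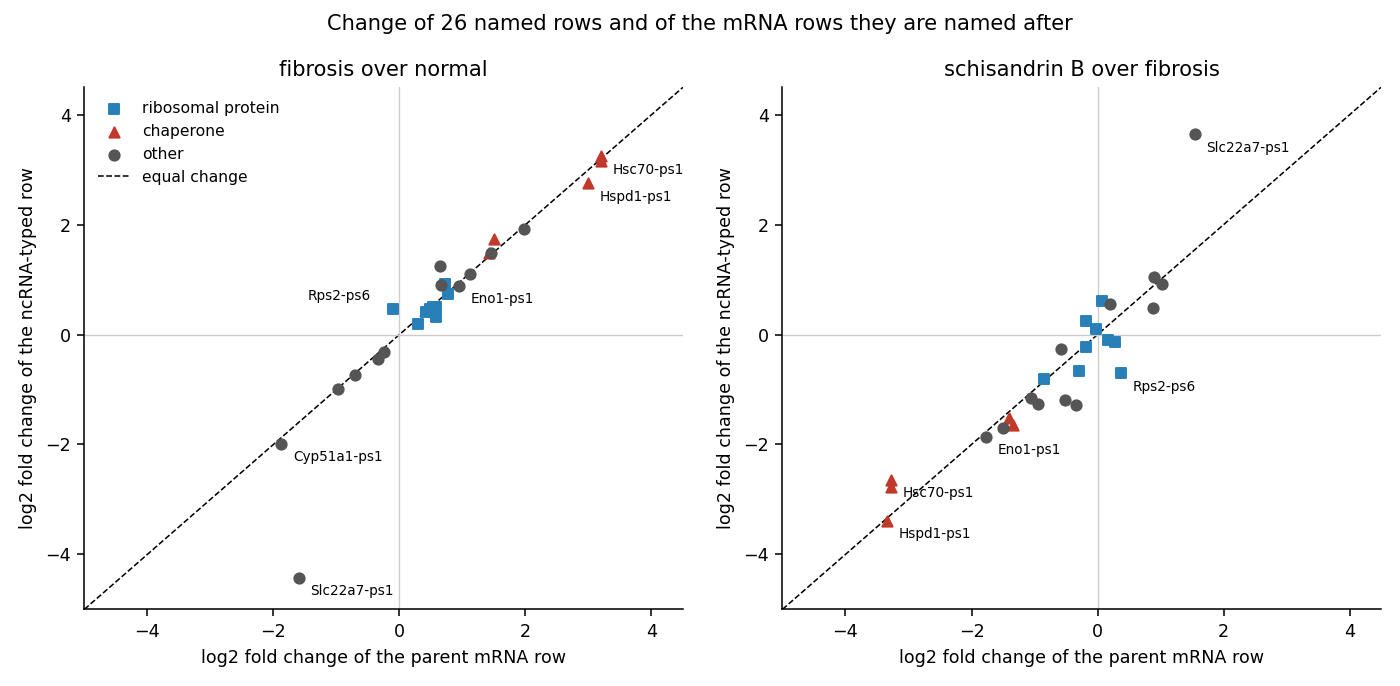
log2 fold change of 26 named rows (vertical axis) against that of the mRNA row each is named after (horizontal axis), for fibrosis over normal (left) and schisandrin B over fibrosis (right), with the dashed line marking equal change. On the left 23 of 26 points lie within 0.5 of the line and on the right 19 do, and Slc22a7-ps1 lies farthest from it, 2.82 under it on the left and 2.10 above it on the right.

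The ratio of counts between a row and its parent, which is not corrected for their lengths, showed how much of the pair's count sat in the ncRNA-typed row. In 8 of the 26 pairs the row held more counts than its parent in all 9 libraries, in 12 it held fewer in all 9, and in 6 the ratio lay on both sides of 1. Rps28-ps1 had 27.9 times the counts of Rps28 in schisandrin B, 24.9 times in fibrosis and 24.9 times in normal libraries, with single libraries of the schisandrin B group from 15.3 to 45.2 times. Eif5b-ps1 had 6.56, 6.93 and 6.99 times those of Eif5b. Within a pair the ratio compares libraries whatever the lengths, and it varied under 2-fold over the 9 libraries in 19 of the 26 pairs, with a median of 1.76 between highest and lowest.

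The pair of Slc22a7 had the widest range. Slc22a7-ps1 had 0.0748 counts for each count of Slc22a7 in schisandrin B libraries, 0.0174 in fibrosis libraries and 0.127 in normal libraries, a 13.1-fold range over single libraries. The parent row had 156, 181 and 177 CPM in schisandrin B libraries, 75.1, 62.4 and 38.9 CPM in fibrosis libraries and 181, 150 and 204 CPM in normal libraries. It fell as well in fibrosis over normal, but by less, at -1.60 ± 0.24 (edgeR, adjusted p = 0.000245), and was higher by 1.54 ± 0.24 in schisandrin B over fibrosis (adjusted p = 0.000341). The ratio was lower in all 3 fibrosis libraries than in any other, and the exact 2-sided permutation test of the ratio gave p = 0.1 in each comparison with fibrosis, the smallest that 3 against 3 libraries allow.

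Rps2-ps6 and Eif4g2-ps1 also had ratios that differed between the groups, and were chosen here after their ratios had been seen. Rps2-ps6 held 6.95 times the counts of Rps2 in schisandrin B libraries, 14.9 times in fibrosis libraries and 9.93 times in normal libraries, while Rps2 itself passed in no comparison. Eif4g2-ps1 held 0.997 times the counts of Eif4g2 in schisandrin B libraries, 1.57 times in fibrosis libraries and 1.33 times in normal libraries. For both pairs the 3 groups of ratios did not overlap. The exact permutation test cannot go under p = 0.1, which 5, 10 and 8 of the 26 pairs reached in fibrosis over normal, schisandrin B over fibrosis and schisandrin B over normal, so it does not show a shift for any pair. Calm-ps2 has 3 possible parents, and against Calm3 it held 0.649 times the counts in schisandrin B, 2.62 times in fibrosis and 1.64 times in normal libraries, since Calm3 fell by 1.02 in fibrosis over normal and was higher by 1.46 in schisandrin B over fibrosis.

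**Figure D4:**
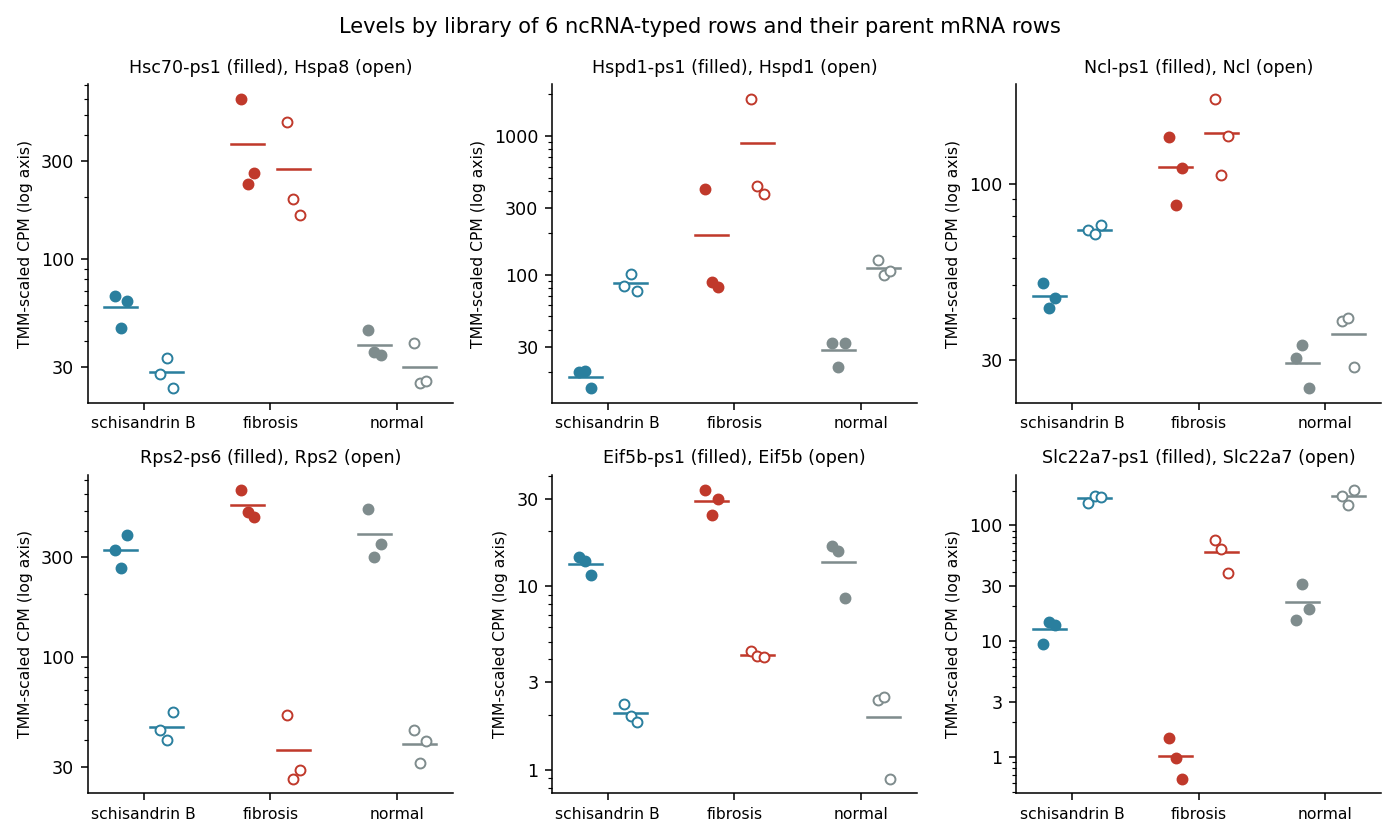
Level in each library (TMM-scaled CPM, log axis, not corrected for length) of 6 ncRNA-typed rows (filled points) and their parent mRNA rows (open points) in the schisandrin B, fibrosis and normal groups, with bars at the group means. In the first 3 pairs and in Eif5b both are highest in fibrosis; Rps2-ps6 is higher in fibrosis than in schisandrin B while Rps2 passed in no comparison, and Slc22a7-ps1 drops further in fibrosis than Slc22a7 does.

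The 168 rows with only a LOC or RGD number held the largest changes, and no role can be given to them here. The most abundant row of all, LOC103693047, had 1437, 2236 and 2178 CPM in schisandrin B libraries, 211, 323 and 152 CPM in fibrosis libraries and 977, 838 and 841 CPM in normal libraries. The 3 groups did not overlap. It fell by 1.95 ± 0.29 in fibrosis over normal (edgeR, adjusted p = 0.00025) and was higher by 3.09 ± 0.31 in schisandrin B over fibrosis (adjusted p = 2.07e-05). It took 21.1% to 26.51% of the counts of the 200 rows in the schisandrin B group, 1.707% to 3.747% in the fibrosis group and 10.96% to 11.75% in the normal group. The difference of 1.14 ± 0.29 between schisandrin B and normal passed (adjusted p = 0.0271) but not without schisandrin B replicate 2 (1.03) or 3 (1.05), nor without normal replicate 1 (1.21), 2 (1.10) or 3 (1.10).

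Other rows of this kind were all but silent in a whole group. LOC100365502 had 247, 783 and 331 CPM in schisandrin B libraries and 291, 287 and 78.2 CPM in fibrosis libraries, against 3 counts in all normal libraries together. The ratio of pooled rates was 6230 in schisandrin B over normal (95% counting interval 2130 to 30200) and 2640 in fibrosis over normal (905 to 12800). Without normal replicate 2, which held all 3 counts, they were at least 1810-fold and at least 874-fold, and without schisandrin B replicate 2 the first was 3750. LOC103691023 was likewise at 114, 212 and 212 CPM in schisandrin B libraries and 40.1, 28.2 and 17.9 CPM in fibrosis libraries, against 0.258, 0.339 and 0.405 CPM in normal libraries. It rose by 6.38 ± 0.45 in fibrosis over normal (edgeR, adjusted p = 2.62e-06) and was higher again by 2.64 ± 0.32 in schisandrin B over fibrosis (adjusted p = 6.92e-05).

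LOC100912485 was the reverse: 12 counts in the schisandrin B libraries together and 0 counts in the fibrosis libraries, against 120, 113 and 101 CPM in normal libraries. With the fibrosis libraries set to 3 counts each, it was at least 517-fold lower in fibrosis than in normal. LOC100911498 had 0 counts in 2 schisandrin B libraries, 16.6 CPM in the third and 0 counts in the fibrosis libraries, against 55.7, 107 and 60.8 CPM in normal libraries. It was at least 347-fold lower in fibrosis than in normal, a call lost without any one of the fibrosis libraries. LOC103691479 had 24.9, 20.3 and 22.6 CPM in schisandrin B libraries and 49.3, 22.1 and 34.9 CPM in fibrosis libraries, against 1245, 429 and 952 CPM in normal libraries, and differed from normal by -5.28 ± 0.44 in schisandrin B (edgeR, adjusted p = 4.46e-05) and by -4.63 ± 0.43 in fibrosis (adjusted p = 1.38e-05). LOC100911498 did not pass between schisandrin B and normal. Of these 5 rows the other 4 passed between normal and each other group, as the 2 Y-linked genes called in each did, and the part of differences between the animals was not tested. LOC100912485 and LOC100911498 are among the 200 only through the normal libraries. A high level there favoured their choice, so their differences from normal are a description.

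A further 3 rows had fibrosis libraries apart from both other groups. All 3 reached the limit only through the group where they were highest, fibrosis for LOC103694387 and LOC100909675 and schisandrin B for LOC102554026. A high level in that group favoured their choice, so their differences are a description. LOC103694387 had 7 counts in the schisandrin B libraries together, 68.7, 14.7 and 9.45 CPM in fibrosis libraries and 1 count in the normal libraries together. The ratio of fibrosis over normal was 1100 (95% counting interval 196 to 43300), or 455 without fibrosis replicate 1 and at least 139-fold without normal replicate 1, which held the only count. The change in schisandrin B over fibrosis was -7.23 ± 1.06 (edgeR, adjusted p = 0.000504), or -5.88 without fibrosis replicate 1 and -9.09 without schisandrin B replicate 2. LOC100909675 had 1.63, 1.46 and 3.29 CPM in schisandrin B libraries, 81.7, 41.3 and 32.9 CPM in fibrosis libraries and 1.03, 0.948 and 0.891 CPM in normal libraries. LOC102554026 went the opposite way, with 7.07, 24.4 and 19.6 CPM in schisandrin B libraries, 0.729, 0.378 and 0.587 CPM in fibrosis libraries and 17.1, 14.4 and 16.7 CPM in normal libraries. For both, the fibrosis libraries did not overlap with either other group.

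**Figure D5:**
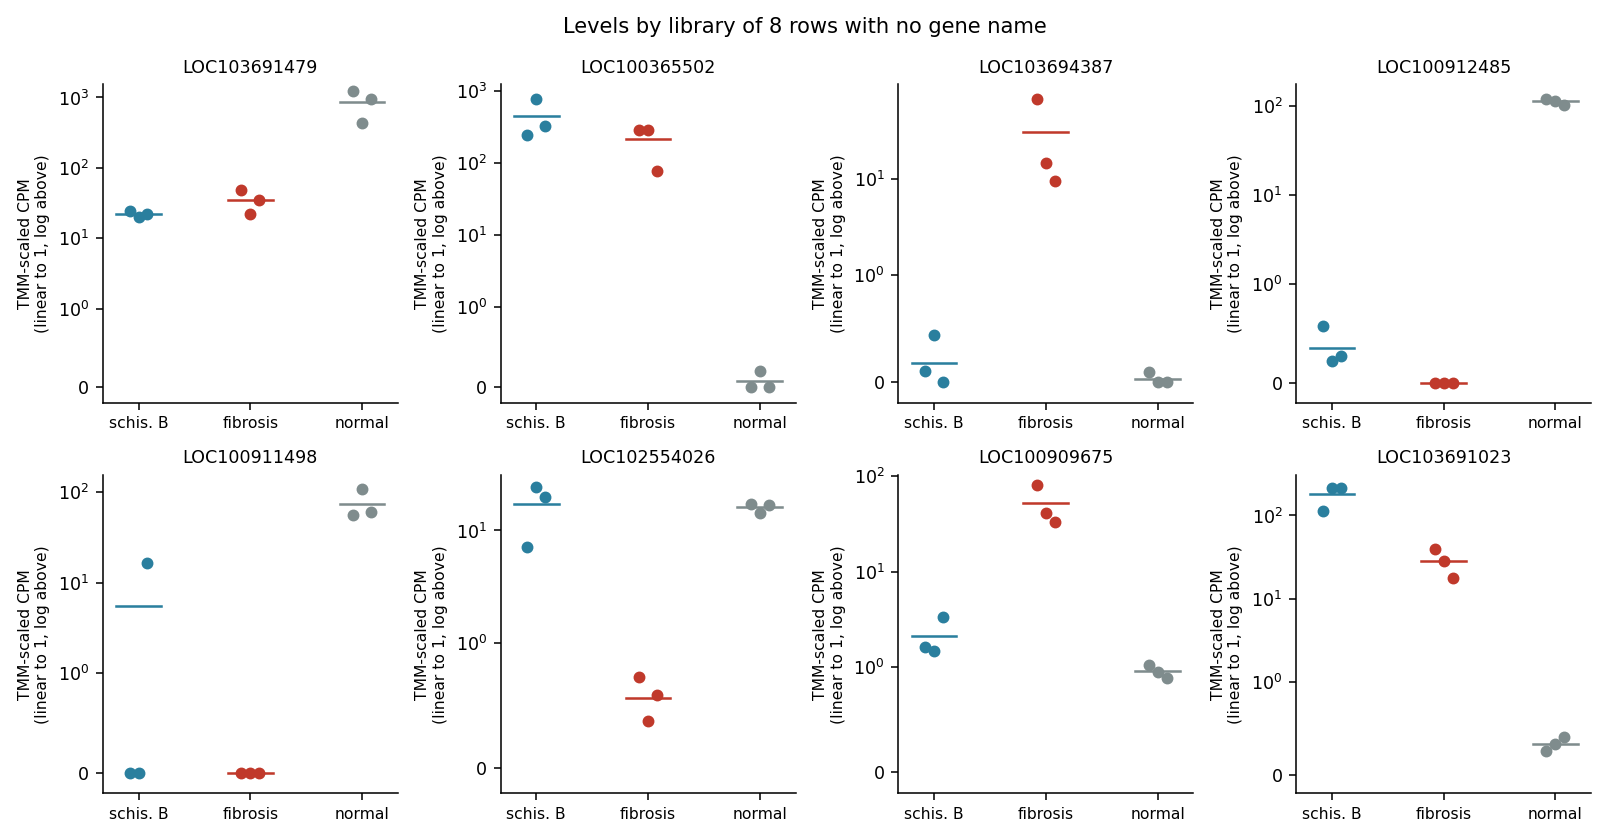
Level in each library (TMM-scaled CPM, linear up to 1 and logarithmic above) of 8 rows that carry only a number, in the schisandrin B, fibrosis and normal groups, with bars at the group means. LOC103691479, LOC100912485 and LOC100911498 are high in normal libraries, LOC100365502 and LOC103691023 are near 0 there, and LOC103694387, LOC100909675 and LOC102554026 set fibrosis libraries apart.

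By form of symbol, the 140 LOC rows held 55 that rose and 35 that fell in fibrosis over normal, and 32 that were higher and 52 that were lower in schisandrin B over fibrosis. These counts were 77 and 26, and 26 and 61, with library totals. Of the 28 RGD rows 13 rose and 1 fell in fibrosis over normal, and 1 was higher and 11 were lower in schisandrin B over fibrosis. With upper-quartile factors the RGD counts were 9 up and 3 down, and 2 up and 10 down, and with library totals 21 up and 0 down, and 0 up and 13 down. Over all rows 25.4% rose and 22.9% fell in fibrosis over normal, and 22.5% were higher and 24.8% lower in schisandrin B over fibrosis, and no test between forms was made. The 27 pseudogene-symbol rows held 12 that rose and 4 that fell, and 4 that were higher and 14 that were lower. High level did not go with change in every case: the rows ranked 3 and 5, at 329.3 and 267.7 CPM on library totals, passed in no comparison. They are among 54 of the 200 rows that passed in none, against 39.4% of all rows tested.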

How the data were processed

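Counts per gene for 9 rat liver libraries were used as deposited: the authors' table holds raw whole-number counts, with no normalization, per the file headers and values. Libraries were prepared for Ion Proton sequencing, per the labels' protocols. The aligner, the counter and the handling of reads that match several places were not given in any source used here. The labels name mouse as organism, but give the strain as Wistar rat, and the symbols are those of rat. Rows are therefore given by symbol without positions, and rat sequence was not used here. Groups follow the source names in the labels.

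The counts were tested with edgeR 4.0.16 under R 4.3.3 (filterByExpr, TMM factors, robust quasi-likelihood fit of all 9 libraries with one mean per group, F tests, Benjamini-Hochberg adjustment over the 14581 rows tested), after tests on simulated data. Adjusted p under 0.05 is called passing. With library totals of 10320299 to 16255167, 3 counts correspond to 0.176 to 0.287 CPM per library, the floor used where a group had 0 counts. Counting intervals are exact at 95%, and intervals and floors cover counting error only.

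The members, the lists and the pairing of rows with parents were chosen with earlier results of these data known. Parents were matched by symbol stem or by another symbol of the same gene (Hspa8, Arhgap35 and Cyp51). For 3 members the parent named had no row, and 1 had several. Members with no parent named were left unpaired. The rule named every row with a proper symbol and the 5 highest rows. It also named the unannotated rows with the largest called change, here limited to 2 per direction and comparison because the table does not pair them with names. Alternatives were DESeq2 1.42.0 and limma 3.58.1 voom as tests, other scalings, filters and thresholds, fits of only the 2 groups compared, member sets of 100 and 400, and the omission of the 20 most counted rows or of each library. Summing a row with its parent was chosen after seeing the data. Figures were drawn with Python 3.11.15 and matplotlib 3.10.9.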

Additional observations from a re-analysis of the deposited data

How the results depend on the processing

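The numbers of the 200 rows passing kept within 1.5 times their values in fibrosis against normal (124) and in schisandrin B against fibrosis (116) under every alternative run on the 200 rows, over 99 to 148 and 98 to 122. Leaving out 1 library gave 108 to 126 (71 to 85 up, 36 to 43 down) and 106 to 117 (33 to 38 up, 73 to 81 down). The third comparison, schisandrin B against normal (35; 16 up, 19 down), was less stable: 55 passed (25 up, 30 down) in a fit of only the 2 groups compared, 15 (6 up, 9 down) at adjusted p under 0.01, and 29 were higher with library totals and 25 with DESeq2. Leaving out 1 library gave 18 to 28 (7 to 12 up, 10 to 17 down). The cause was not tested. A set of 100 rows gave 68 (49 up, 19 down), 62 (13 up, 49 down) and 21 (8 up) in the 3 comparisons. A set of 400 gave 226 (146 up, 80 down), 219 (79 up, 140 down) and 62 (34 up). The sets differ in size, and the share passing fell as the set grew. In fibrosis over normal it was 68 of 100, 124 of 200 and 226 of 400, with 49, 82 and 146 up. Of 1074 values of 43 named rows under the alternatives, 1001 kept direction and side of the threshold, 70 no longer passed, 3 newly passed and 0 reversed. Summed with its parent row (an alternative chosen after seeing the data), 34 of 39 called values still passed. Those lost were Ftl1l1 in fibrosis over normal (0.77) and in schisandrin B over fibrosis (-0.53), Calm-ps2 in schisandrin B over fibrosis (-0.27) and over normal (-0.42), and Rps2-ps6 in schisandrin B over fibrosis (-0.61). No paired analysis was possible because the libraries' titles carry no replicate numbers shared between groups. Depth limits the rows with counts near 0 in a group, whose folds are given as bounds or counting intervals.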

Other observations

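Few of the familiar noncoding RNAs could be measured. Gas5, a small nucleolar RNA host gene that accumulates in growth-arrested cells, lay below the 200 rows and had 6.02, 5.54 and 5.57 CPM in schisandrin B libraries, 18.5, 12.8 and 12.2 CPM in fibrosis libraries and 2.58, 4.40 and 3.00 CPM in normal libraries. Its groups did not overlap, and it changed by 2.11 ± 0.27 in fibrosis over normal (edgeR, adjusted p = 9.20e-05) and by -1.34 ± 0.26 in schisandrin B over fibrosis (adjusted p = 0.00155). H19, an imprinted RNA of fetal liver, had 4.30, 1.31 and 10.8 CPM in schisandrin B libraries, 0.162, 5.83 and 0.646 CPM in fibrosis libraries and 0.687, 0.0677 and 1.295 CPM in normal libraries, with overlapping groups and no comparison passing. Snhg4 held 11 counts over the 9 libraries and Miat was at 0 in all of them. Rows typed as ribosomal RNA took 0.058% to 0.140% of the counts in the schisandrin B group, 0.128% to 0.185% in the fibrosis group and 0.0805% to 0.120% in the normal group.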
